A study of Homo sapiens with 2 samples.

Results

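The genes described here carry signals of the TGF-beta superfamily, the secreted growth factors that include the TGF-betas, the activins and the bone morphogenetic proteins (BMPs). They were chosen by gene name, as the ligands, receptors, SMAD proteins, inhibitors and direct target genes of the pathway. Of 42 listed genes, 40 were analysed among 21225 genes in all. PMEPA1 and SNAI2 of the list, and the ligand gene TGFB1, were not analysed here. RNA-seq was done on Huh7 cells, a human hepatoma line, after transfection with an shRNA against E2F6 (1 library) or with a control shRNA (1 library). E2F6 is an E2F family member that lacks the transactivation domain of the others and acts as a repressor. The shRNA sequence, the time after transfection and whether cells were selected are not given in the sources used here.

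TGF-beta superfamily ligands are dimers that bring together type II and type I receptor kinases at the cell surface. The type I receptor then phosphorylates receptor SMADs, SMAD2 and SMAD3 on the TGF-beta and activin branch and SMAD1 and SMAD5 on the BMP branch, and these enter the nucleus with SMAD4. Secreted proteins such as follistatin trap the ligands, and many inhibitors, among them SMAD6, SMAD7 and BAMBI, are themselves induced by the signal. In liver, BMP signalling drives transcription of the iron hormone hepcidin, and TGF-beta restrains hepatocyte growth and activates stellate cells.

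Values are in FPKM, which corrects for transcript length and library size, so levels can be compared between genes. A difference is the change in log2(FPKM + 1), E2F6 shRNA minus control shRNA. With 1 library in each group no test between conditions was possible, and no p-value is given. A gene was called higher or lower when its difference was 1 or more in size and its mean FPKM was 1 or more, which is termed the rule of size. Ratios are of the FPKM values, with a 95% interval from estimated fragments that covers counting error only. The low values put 1 fragment per kilobase at 0.0679 FPKM in the E2F6 shRNA library and 0.0583 FPKM in the control shRNA library, which implies scaling totals of 14724873 for the E2F6 shRNA library and 17139814 for the control shRNA library. E2F6 itself was at 0.997 FPKM in the E2F6 shRNA library and 2.54 FPKM in the control shRNA library, 39.3% of the control (25.8 to 59.3%). Its difference of -0.82 is short of the rule, and 4 pseudogenes carry its name. All 10 hepatocyte and hepatoma markers had a mean above 1 FPKM, with ranges of 13.0 to 1064 FPKM in the E2F6 shRNA library and 4.56 to 1721 FPKM in the control shRNA library.

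In all, 4 signalling genes with different roles were lower in the E2F6 shRNA library by the rule of size: the co-receptor gene TGFBR3, the co-repressor gene TGIF2, the activin trap gene FST and the liver activin subunit gene INHBE. TGFBR3 was 4.37-fold lower (3.23 to 6.11), TGIF2 3.23-fold lower (2.32 to 4.54), INHBE 2.81-fold lower (1.98 to 4.15) and FST 2.51-fold lower (2.04 to 3.10). No member was higher by the rule, and BMP2 and FSTL3, at differences of 0.99 and 0.98, came nearest. Of the 40 members 35 reached a mean of 1 FPKM, and of these 0 were higher, 4 lower and 31 not past the rule. Among all 11574 genes at that level 1.17% were higher and 2.06% lower. Ranks and shares of all genes given here are over these 11574, or for intervals over the 11527 of them with an annotated length. The members were chosen with earlier results of these data known. The members' median difference was -0.02, against -0.002 for all genes, with 17 members above 0 and 18 below, where 49.7% and 50.3% of all genes lay.

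At a threshold of 1.5-fold in FPKM + 1, a difference of 0.585 in size, 7 members were higher and 8 lower. Over all genes 5.05% and 9.33% passed it. By the ratio of FPKM without the added 1, SMAD7 and TGIF1 were also more than 1.5-fold higher and ACVR2A more than 1.5-fold lower. The 7 were BMP2, ACVR1B, FSTL1, FSTL3, LTBP1, BAMBI and ID3, and the 8 were the called genes with TGFBR1, TGFBR2, SMAD5 and SKIL. Counting error alone left 13 of the 35 ratios undecided, since 11 intervals lay above 1 and 11 below it. Among all genes 20.8% of intervals lay above 1 and 23.5% below. These intervals do not cover the spread between cultures, which 1 library in each group cannot show. In bulk RNA, fewer cells of a type and less RNA per cell cannot be told apart.

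**Figure D1:**
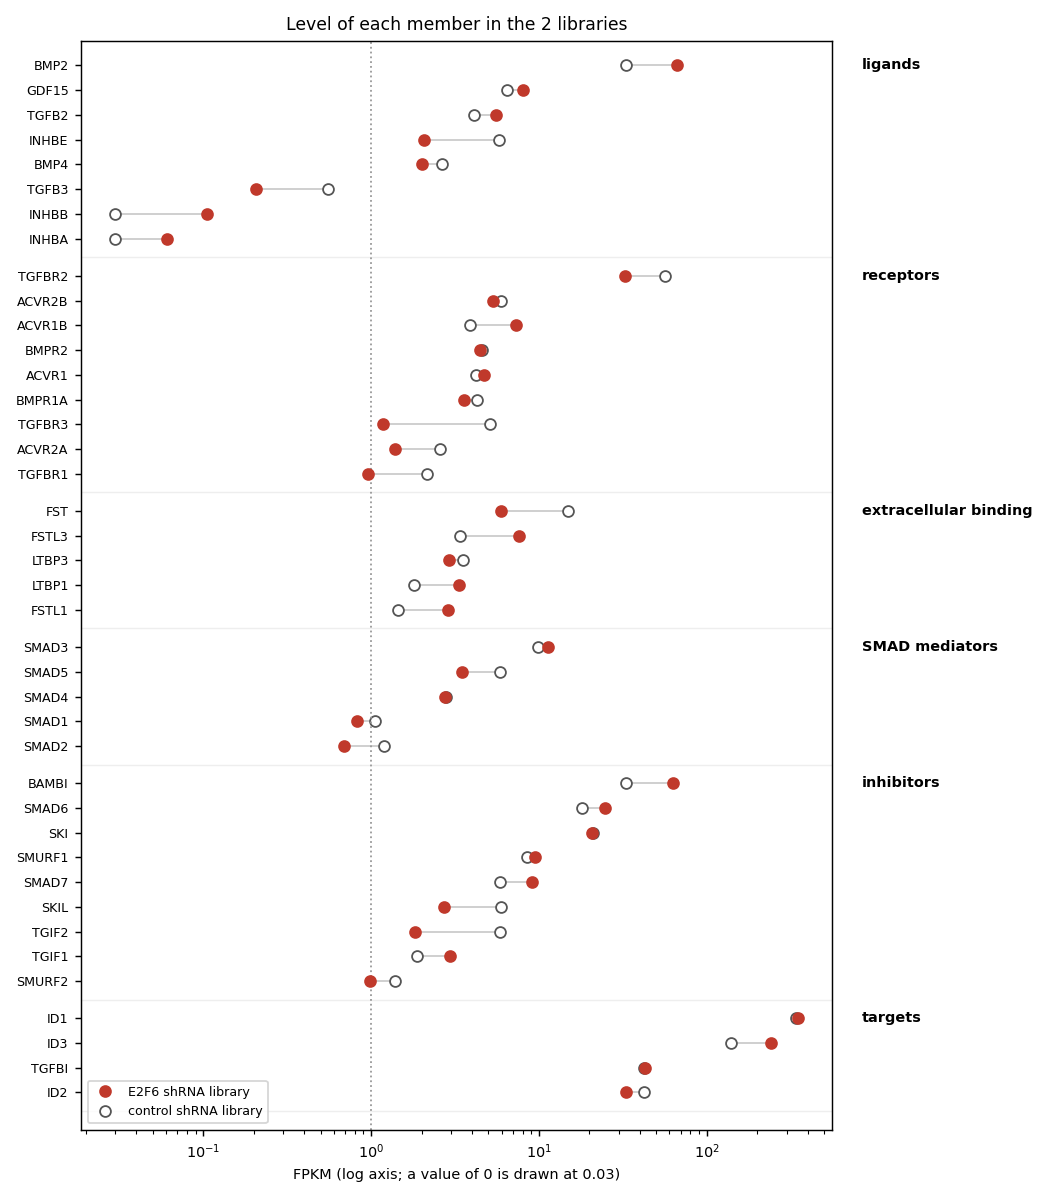
Level of each of the 40 members in FPKM (log axis), with the E2F6 shRNA library as filled points and the control shRNA library as open points, grouped by role and ordered by mean level. ID1 had the highest levels at 349.8 FPKM with the E2F6 shRNA and 340.3 FPKM with the control shRNA, and the dotted line marks 1 FPKM.

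Promoters of the called members are shown because these are the genes with the largest differences. Those of SKIL and BAMBI are examples with the motifs searched, and other members with matches are not shown. ACVR1B, for example, held GGCGCC in 4 places. Sequences are from RefSeq (GRCh38.p14) and were matched for 37 of the 40 members (not BMP2, INHBE and SKI). Each is the 250 bases before the first listed start, 5′ to 3′ on the gene's strand, and 14 of the 37 genes have more than 1 listed start. Capitals mark the E2F core GCGGGAA, searched on both strands, and GGCGCC, a GC-rich sequence that BMP-activated SMADs bind and that reads the same on both strands. No matches of the 2 motifs overlapped in the promoters shown. TGFBR3 is from chr1:91886152-91886401 (minus strand), FST from chr5:53480379-53480628 (plus strand), TGIF2 from chr20:36573214-36573463 (plus strand), SKIL from chr3:170357465-170357714 (plus strand) and BAMBI from chr10:28677271-28677520 (plus strand).
TGFBR3: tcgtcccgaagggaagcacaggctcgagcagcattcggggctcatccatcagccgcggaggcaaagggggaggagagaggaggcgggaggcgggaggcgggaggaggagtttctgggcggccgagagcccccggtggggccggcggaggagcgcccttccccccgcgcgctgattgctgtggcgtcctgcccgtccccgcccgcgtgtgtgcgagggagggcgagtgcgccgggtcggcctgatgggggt
FST: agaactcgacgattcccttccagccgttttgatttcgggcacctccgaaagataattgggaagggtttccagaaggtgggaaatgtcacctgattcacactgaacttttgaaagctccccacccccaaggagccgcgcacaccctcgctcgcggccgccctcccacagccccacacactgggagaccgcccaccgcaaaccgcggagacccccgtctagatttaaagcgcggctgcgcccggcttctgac
TGIF2: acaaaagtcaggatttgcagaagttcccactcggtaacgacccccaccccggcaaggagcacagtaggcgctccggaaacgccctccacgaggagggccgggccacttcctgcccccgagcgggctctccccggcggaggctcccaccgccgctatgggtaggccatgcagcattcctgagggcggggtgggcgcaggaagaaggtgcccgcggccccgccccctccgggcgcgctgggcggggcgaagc
SKIL: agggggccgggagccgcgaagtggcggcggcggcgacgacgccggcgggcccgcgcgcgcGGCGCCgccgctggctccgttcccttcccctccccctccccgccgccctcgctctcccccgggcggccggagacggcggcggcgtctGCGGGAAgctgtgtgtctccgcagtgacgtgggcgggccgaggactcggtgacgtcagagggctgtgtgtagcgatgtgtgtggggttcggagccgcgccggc
BAMBI: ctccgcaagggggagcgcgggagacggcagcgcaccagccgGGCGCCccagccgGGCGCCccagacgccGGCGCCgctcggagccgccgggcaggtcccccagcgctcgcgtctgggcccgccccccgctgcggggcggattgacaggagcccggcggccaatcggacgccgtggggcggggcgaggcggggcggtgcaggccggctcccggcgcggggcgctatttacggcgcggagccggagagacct

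The windows of TGFBR3, FST and TGIF2 held neither motif, but TGIF2 has 2 listed starts and only the first was searched. In SKIL the E2F core began 103 bases before the start and GGCGCC began 190 bases before it. BAMBI held GGCGCC in 3 places, beginning 209, 196 and 181 bases before the start. The E2F core was found in 4 of the 37 member promoters, those of INHBB, ACVR2B, SKIL and SMAD2. That is 10.8%, against 9.71% of 7817 promoters of genes that reached a mean of 1 FPKM here and 5.59% of all 27305 promoters. GGCGCC was in 13 of the 37, or 35.1%, against 27.0% of the expressed genes' promoters and 16.1% of all. Median GC content was 70.4% in members' promoters, 65.2% in those of expressed genes and 58.0% in all. The 11 members with GGCGCC that reached a mean of 1 FPKM had a median difference of 0.13, with 7 above 0, and the 21 without it had a median of -0.21, with 9 above 0. The 2 members with the E2F core that reached that level, ACVR2B and SKIL, had a median of -0.52, with both below 0, and the 30 without it had a median of 0.03, with 16 above 0. All expressed genes were not split by motif in the same way, so these medians have no background to be read against. Differences also moved with transcript GC content over 9900 protein-coding genes (Spearman correlation 0.46), and the part of GC content in these medians was not tested. A match is only a run of letters in this window.

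Among ligand genes BMP2 was by far the most abundant, and the activin subunit genes INHBA and INHBB were low. BMP2 (chromosome 20), which encodes a BMP that signals through SMAD1 and SMAD5, was at 66.9 FPKM in the E2F6 shRNA library and 33.2 FPKM in the control shRNA library. Its ratio was 2.02 (1.91 to 2.13), and 98.8% of all genes had a lower difference. The related ligand gene BMP4 was at 2.02 FPKM with the E2F6 shRNA and 2.66 FPKM with the control shRNA, with a ratio of 0.759 whose interval of 0.479 to 1.195 includes 1. BMP2 was thus 33.1 times the level of BMP4 with the E2F6 shRNA and 12.5 times with the control shRNA.

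INHBE (chromosome 12), which encodes the liver-secreted subunit of activin E, was at 2.07 FPKM in the E2F6 shRNA library and 5.82 FPKM in the control shRNA library, from an estimated 40 fragments with the E2F6 shRNA and 132 with the control shRNA. Its difference was -1.15 and 1.31% of all genes had a lower one. The activin subunit genes INHBA and INHBB were near the limit of detection in this line. INHBA was at 0.0605 FPKM and INHBB at 0.106 FPKM in the E2F6 shRNA library, and the control shRNA table lists each at 0. The E2F6 shRNA values are about 2 fragments for INHBA and 5 for INHBB, and 3 fragments would be 0.0701 FPKM for INHBA and 0.0546 FPKM for INHBB in the control, so no fold is given.

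TGFB2 was the more abundant of the analysed TGF-beta ligand genes, at 5.56 FPKM in the E2F6 shRNA library and 4.09 FPKM in the control shRNA library, a ratio of 1.36 (1.13 to 1.64). An RNA within its 3′ end, TGFB2-OT1, shares 26.6% of its exon bases and was at 0.198 FPKM with the E2F6 shRNA and 0.255 FPKM with the control shRNA. TGFB3 was below 1 FPKM, at 0.206 FPKM with the E2F6 shRNA and 0.554 FPKM with the control shRNA, with a ratio of 0.372 and an interval of 0.0912 to 1.28. GDF15, a stress-induced hormone gene of the same family, was at 8.07 FPKM with the E2F6 shRNA and 6.46 FPKM with the control shRNA, a ratio of 1.25 whose interval of 0.908 to 1.74 includes 1.

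Of the 9 receptor genes 7 had a difference below 0, with 1 past the rule and a median of -0.21. Over all genes 50.3% of differences were below 0 and 2.06% of genes were lower by the rule. With the trend of the difference on transcript GC content removed, 5 of the 9 were below 0 and the median was -0.27, since BMPR1A was then at 0.06 and BMPR2 at 0.37. TGFBR3 (chromosome 1), betaglycan, which presents TGF-beta to TGFBR2 and serves inhibins as a co-receptor, was at 1.18 FPKM in the E2F6 shRNA library and 5.14 FPKM in the control shRNA library. Its difference of -1.496 was the lowest of the 35, and 0.484% of all genes had a lower one.

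TGFBR2 (chromosome 3), the type II receptor of TGF-beta, was the most abundant receptor gene in each library, at 32.6 FPKM with the E2F6 shRNA and 56.1 FPKM with the control shRNA. Its ratio of 0.580 (0.551 to 0.611) rests on an estimated 2212 fragments with the E2F6 shRNA and 4436 with the control shRNA, and its difference of -0.77 is short of the rule. TGFBR1, the type I receptor that pairs with it, was at 0.962 FPKM with the E2F6 shRNA and 2.14 FPKM with the control shRNA, a ratio of 0.449 (0.290 to 0.667). The values of all 3 TGF-beta receptor genes were therefore lower in the E2F6 shRNA library, with intervals below 1. Over all genes 23.5% of intervals lay below 1, and of the 3 genes only TGFBR3 passed the rule. With the GC trend removed the differences were -1.48 for TGFBR3, -0.75 for TGFBR2 and -0.41 for TGFBR1. TGFBR2 was 33.9 times the level of TGFBR1 with the E2F6 shRNA and 26.2 times with the control shRNA.

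The activin and BMP receptor genes differed among themselves. ACVR1B, the activin type I receptor ALK4, was at 7.27 FPKM in the E2F6 shRNA library and 3.87 FPKM in the control shRNA library, a ratio of 1.88 (1.501 to 2.38) and the highest difference of any receptor gene at 0.77. ACVR2A, a type II receptor of activins, was at 1.38 FPKM with the E2F6 shRNA and 2.56 FPKM with the control shRNA with a ratio of 0.539 (0.371 to 0.765). Opposite-strand ORC4 shares 6.35% of its exon bases and was at 1.38 FPKM with the E2F6 shRNA and 2.44 FPKM with the control shRNA, and whether reads were counted by strand is not given in the sources used here. ACVR2B, its close relative, was at 5.35 FPKM with the E2F6 shRNA and 5.96 FPKM with the control shRNA with an interval of 0.795 to 1.009.

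The ratios of the BMP receptor genes BMPR2, BMPR1A and ACVR1 lay closer together. BMPR2, the BMP type II receptor, was at 4.46 FPKM in the E2F6 shRNA library and 4.56 FPKM in the control shRNA library, a ratio of 0.977 (0.857 to 1.12). BMPR1A, a BMP type I receptor with 2 pseudogenes named after it, was at 3.59 FPKM with the E2F6 shRNA and 4.30 FPKM with the control shRNA, a ratio of 0.833 (0.705 to 0.982). ACVR1, the type I receptor ALK2, was at 4.74 FPKM with the E2F6 shRNA and 4.23 FPKM with the control shRNA, and its interval of 0.840 to 1.49 includes 1. Of the summed FPKM of the 4 type I receptor genes among the members, ACVR1B made up 43.9% with the E2F6 shRNA and 26.6% with the control shRNA. TGFBR1 made up 5.81% of it with the E2F6 shRNA and 14.7% with the control shRNA. Of the 4 type II genes among the members TGFBR2 made up 74.4% with the E2F6 shRNA and 81.1% with the control shRNA.

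Of the 5 extracellular binding proteins, 3 had an interval above 1, and FST, which encodes follistatin, was lower by the rule. Over all genes 20.8% of intervals lay above 1 and 2.06% of genes were lower by the rule. FST (chromosome 5), which binds activins almost irreversibly, was at 5.97 FPKM in the E2F6 shRNA library and 14.96 FPKM in the control shRNA library, with a difference of -1.195 below which lay 1.18% of all genes. FSTL3 (chromosome 19), a related activin and myostatin trap, was at 7.61 FPKM with the E2F6 shRNA and 3.38 FPKM with the control shRNA, a ratio of 2.25 (1.66 to 3.09). The traps thus differed in opposite directions. Their summed level was 13.6 FPKM with the E2F6 shRNA and 18.3 FPKM with the control shRNA, and FST was 43.9% of it with the E2F6 shRNA and 81.6% with the control shRNA.

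FSTL1, a secreted glycoprotein related to follistatin by sequence, was at 2.87 FPKM in the E2F6 shRNA library and 1.44 FPKM in the control shRNA library, a ratio of 1.99 (1.28 to 3.26) from an estimated 54 fragments with the E2F6 shRNA and 31 with the control shRNA. LTBP1 and LTBP3 encode proteins that tether latent TGF-beta to the matrix. LTBP1 was at 3.34 FPKM with the E2F6 shRNA and 1.81 FPKM with the control shRNA, a ratio of 1.85 (1.39 to 2.48). LTBP3 was at 2.90 FPKM with the E2F6 shRNA and 3.51 FPKM with the control shRNA, with an interval of 0.613 to 1.12 that includes 1.

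Of the 5 SMAD mediators 3 reached a mean of 1 FPKM, and none passed the rule. Over all genes 1.17% were higher and 2.06% lower. SMAD3 was the most abundant mediator. It was at 11.3 FPKM in the E2F6 shRNA library and 9.86 FPKM in the control shRNA library, a ratio of 1.15 (0.947 to 1.40). SMAD2, which shares its branch, was at 0.690 FPKM with the E2F6 shRNA and 1.19 FPKM with the control shRNA, a ratio of 0.581 (0.418 to 0.817) at a mean below 1 FPKM. Of the summed FPKM of the 4 receptor SMAD genes among the members, SMAD3 made up 69.3% with the E2F6 shRNA and 54.7% with the control shRNA.

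On the BMP branch SMAD5 was at 3.51 FPKM in the E2F6 shRNA library and 5.90 FPKM in the control shRNA library, a ratio of 0.594 (0.463 to 0.767). SMAD1 was at 0.828 FPKM with the E2F6 shRNA and 1.06 FPKM with the control shRNA, and its interval of 0.341 to 1.70 rests on about 12 fragments with the E2F6 shRNA and 18 with the control shRNA. SMAD4, the partner shared by the branches, was at 2.74 FPKM with the E2F6 shRNA and 2.80 FPKM with the control shRNA with a ratio of 0.980 (0.716 to 1.33).

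**Figure D2:**
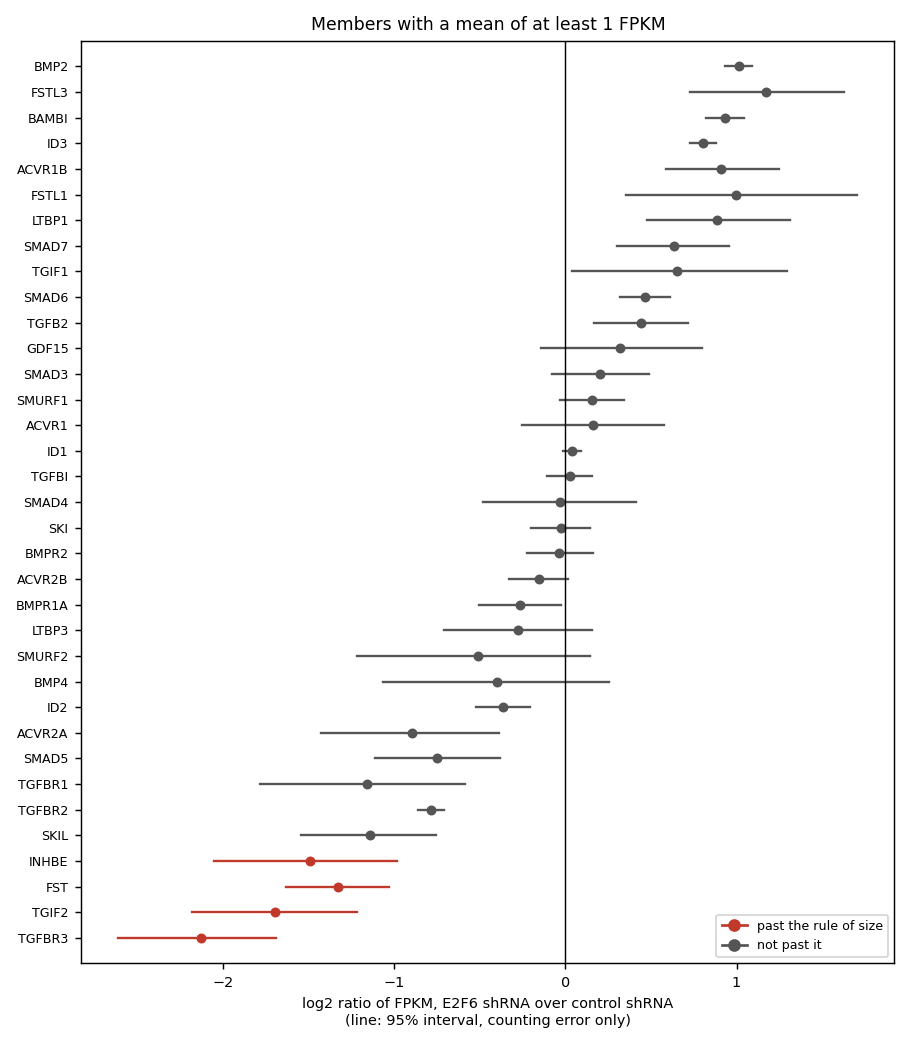
log2 ratio of FPKM in the E2F6 shRNA library over the control shRNA library for the 35 members that reached a mean of 1 FPKM, ordered by the difference in log2(FPKM + 1), with 95% counting intervals as lines. The 4 members past the rule, in red, are INHBE, FST, TGIF2 and TGFBR3, and the intervals of 13 members cross 0.

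Of the 9 inhibitors that act at receptors or within the cell, 1 was lower by the rule, against 2.06% of all genes. The interval lay above 1 for 4, SMAD6, SMAD7, TGIF1 and BAMBI, and below 1 for 2, SKIL and TGIF2. Over all genes 20.8% of intervals lay above 1 and 23.5% below. BAMBI (chromosome 10), a pseudoreceptor without a kinase domain that blocks TGF-beta and BMP receptors, was at 62.8 FPKM in the E2F6 shRNA library and 32.9 FPKM in the control shRNA library. Its ratio was 1.91 (1.76 to 2.06), and 98.4% of all genes had a lower difference than its 0.91. SMAD6, which inhibits mainly BMP signals, was at 24.9 FPKM with the E2F6 shRNA and 18.02 FPKM with the control shRNA, a ratio of 1.38 (1.25 to 1.53). SMAD7, which inhibits TGF-beta and BMP receptors alike, was at 9.07 FPKM with the E2F6 shRNA and 5.84 FPKM with the control shRNA, a ratio of 1.55 (1.24 to 1.94).

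The homeobox co-repressors TGIF1 and TGIF2, which recruit histone deacetylases to SMAD complexes, differed in opposite directions. TGIF2 (chromosome 20) was at 1.82 FPKM in the E2F6 shRNA library and 5.89 FPKM in the control shRNA library, a difference of -1.29 below which lay 0.821% of all genes. TGIF1 was at 2.95 FPKM with the E2F6 shRNA and 1.88 FPKM with the control shRNA, a ratio of 1.57 (1.03 to 2.46). TGIF2 made up 38.2% of the pair with the E2F6 shRNA and 75.8% with the control shRNA. The read-through gene TGIF2-C20orf24 shares 8.14% of the exon bases of TGIF2 and was at 0.0739 FPKM with the E2F6 shRNA and 1.46 FPKM with the control shRNA, and 1 pseudogene is named after TGIF2, so the division of reads is uncertain.

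SKI and SKIL are related co-repressors that hold SMAD complexes inactive, and SKIL is also a feedback target of TGF-beta. SKIL was at 2.71 FPKM in the E2F6 shRNA library and 5.98 FPKM in the control shRNA library, a ratio of 0.453 (0.343 to 0.592) and a difference of -0.91 short of the rule. SKI was at 20.7 FPKM with the E2F6 shRNA and 21.1 FPKM with the control shRNA, a ratio of 0.982 (0.870 to 1.11). The ubiquitin ligases SMURF1 and SMURF2 mark receptors and SMADs for degradation. SMURF1 was at 9.50 FPKM with the E2F6 shRNA and 8.52 FPKM with the control shRNA, with an interval of 0.979 to 1.27. SMURF2 was at 0.982 FPKM with the E2F6 shRNA and 1.40 FPKM with the control shRNA, with an interval of 0.430 to 1.103, so each includes 1. Opposite-strand TRRAP shares 11.7% of the exon bases of SMURF1 and was at 15.6 FPKM with the E2F6 shRNA and 13.7 FPKM with the control shRNA.

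**Figure D3:**
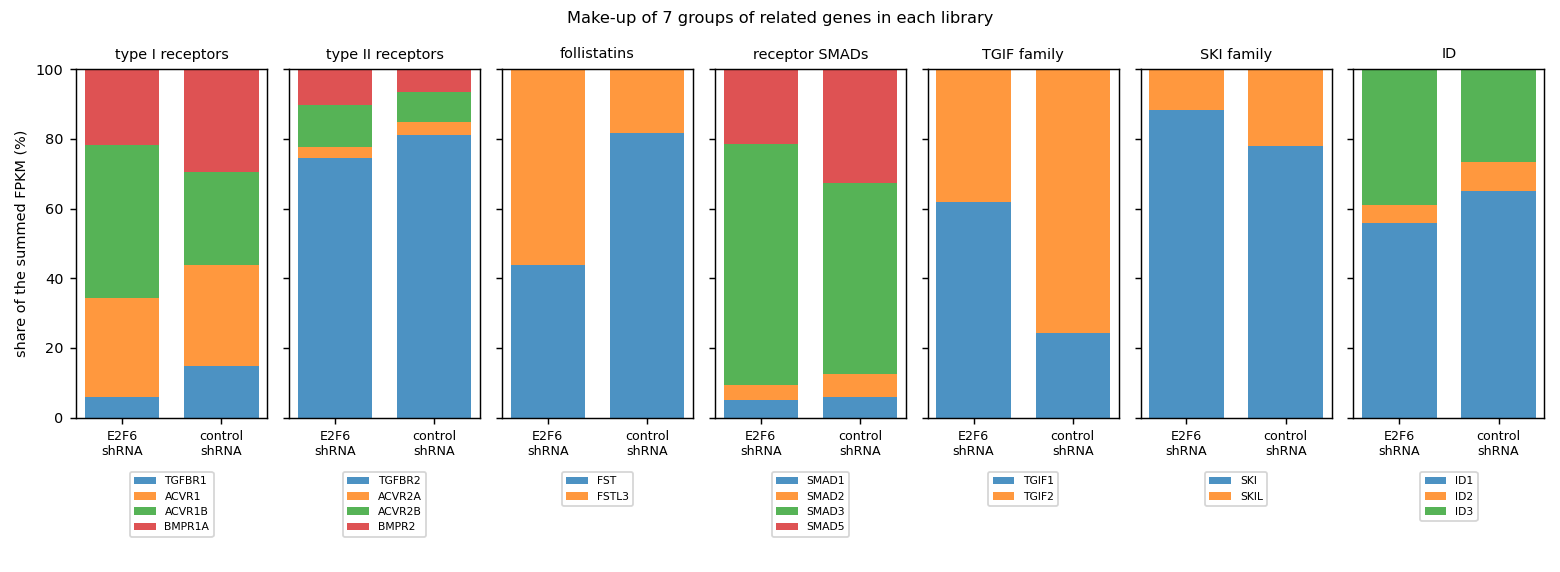
Share of the summed FPKM (%) that each gene makes up within 7 groups of related genes, with the E2F6 shRNA library left of the control shRNA library in each panel. FSTL3 made up 56.1% of the follistatin pair with the E2F6 shRNA and 18.4% with the control shRNA.

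Of the 4 target genes, 0 passed the rule, where 1.17% of all genes were higher and 2.06% lower. ID1 and ID3 had the highest levels of all members in each library. ID1, ID2 and ID3 encode proteins that bind and block basic helix-loop-helix factors and are direct targets of BMP-activated SMADs. ID3 (chromosome 1) was at 243.5 FPKM in the E2F6 shRNA library and 139 FPKM in the control shRNA library, a ratio of 1.75 (1.65 to 1.84) and a difference of 0.80. ID1 was at 349.8 FPKM with the E2F6 shRNA and 340.3 FPKM with the control shRNA, a ratio of 1.03 (0.992 to 1.07). ID2 was at 32.9 FPKM with the E2F6 shRNA and 42.3 FPKM with the control shRNA, a ratio of 0.777 (0.696 to 0.868). The interval was thus above 1 for ID3, included 1 for ID1 and was below 1 for ID2. ID3 made up 38.9% of their sum with the E2F6 shRNA and 26.7% with the control shRNA. TGFBI, a matrix protein gene induced by TGF-beta, was at 42.9 FPKM with the E2F6 shRNA and 42.1 FPKM with the control shRNA, a ratio of 1.02 (0.930 to 1.11).

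GC content of the transcripts moved with the difference over protein-coding genes and among the members. The Spearman correlation was 0.46 across 9900 protein-coding genes and 0.38 across the 35 members, given as a description of points that share the same 2 libraries. Of the 14 members below the median GC content of 49.8%, 2 had a difference above 0 and the median was -0.47. Of the 21 at or above it, 15 were above 0 and the median was 0.18. The same split of the protein-coding genes gave 1502 of 4950 above 0 with a median of -0.18 in the lower part. In the upper part 3377 of 4950 were above 0 with a median of 0.15.

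With the GC trend removed the 4 called genes stayed past the rule, at -1.48 for TGFBR3, -1.43 for TGIF2, -1.31 for INHBE and -1.21 for FST. BMP2 was then at 0.87, FSTL3 at 0.84, BAMBI at 0.79 and ID3 at 0.64. SKIL was at -0.55 and TGFBR1 at -0.41, against -0.91 and -0.68 without the correction, and their transcripts are 39.7% and 41.8% GC. TGFB2, at 39.9% GC, was at 0.72, against 0.37. The part of GC content in these differences was not tested.

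**Figure D4:**
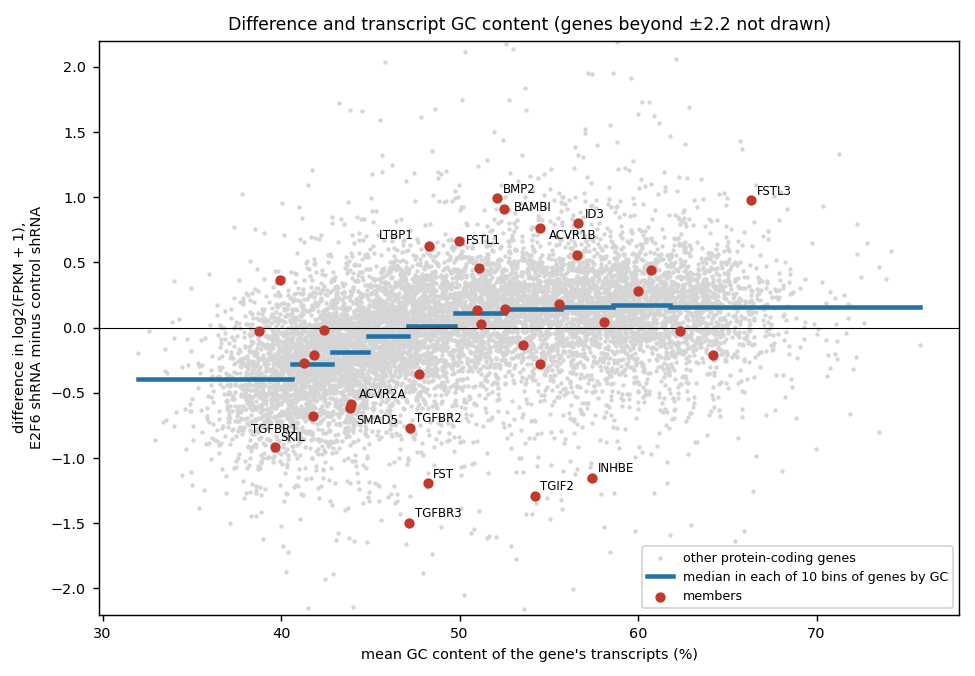
Difference in log2(FPKM + 1), E2F6 shRNA minus control shRNA, against the mean GC content of each gene's transcripts (%), for 9900 protein-coding genes in grey and the 35 members in red, with blue lines for the medians of 10 equal bins of genes by GC. The median is -0.39 in the lowest bin and 0.16 in the highest, and TGFBR3, FST, TGIF2 and INHBE lie below the line.

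Of 81 other genes of the pathway, 59 were analysed and 31 reached a mean of 1 FPKM, of which 0 were higher, 2 lower and 29 not past the rule. The lower genes make up 6.45% of the 31, against 2.06% of all genes, but the list was chosen with earlier results of these data known. Of the 2, HFE2 had a mean of 1.09 FPKM, just past the minimum. HFE2 encodes hemojuvelin, the BMP co-receptor that drives hepcidin in hepatocytes, and it was at 0.365 FPKM in the E2F6 shRNA library and 1.81 FPKM in the control shRNA library, from about 7 fragments with the E2F6 shRNA and 42 with the control shRNA. HAMP, the hepcidin gene and a direct BMP target, was at 4.43 FPKM with the E2F6 shRNA and 20.8 FPKM with the control shRNA, a difference of -2.005.

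Of the 14 target genes of this wider list that were analysed, 11 reached a mean of 1 FPKM, with 0 higher, 1 lower and a median of -0.03. The shares of all genes were 1.17% higher and 2.06% lower. COL1A1 had the highest difference among these targets at 0.83, with 36.7 FPKM in the E2F6 shRNA library and 20.1 FPKM in the control shRNA library. None of 14 intracellular regulators passed the rule, and 10 of the 14 differences were below 0, where 50.3% of all genes lay. Their median GC content was 42.3%, and with the GC trend removed 8 of the 14 were below 0 and the median was -0.03. USP15, a deubiquitinase that acts on SMADs and receptors, was lowest at -0.72 and TAB1, an adaptor of the kinase TAK1, highest at 0.34. Of 4 extracellular genes none passed it, with NBL1, a BMP antagonist, highest at 0.86 and TWSG1, a BMP-binding protein, lowest at -0.08. NBL1 shares 3.64% of its exon bases with MINOS1, which was at 3.97 FPKM with the E2F6 shRNA and 6.37 FPKM with the control shRNA. GDF11, the 1 ligand gene of 10 analysed that reached a mean of 1 FPKM, was at 10.3 FPKM with the E2F6 shRNA and 9.999 FPKM with the control shRNA.

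**Figure D5:**
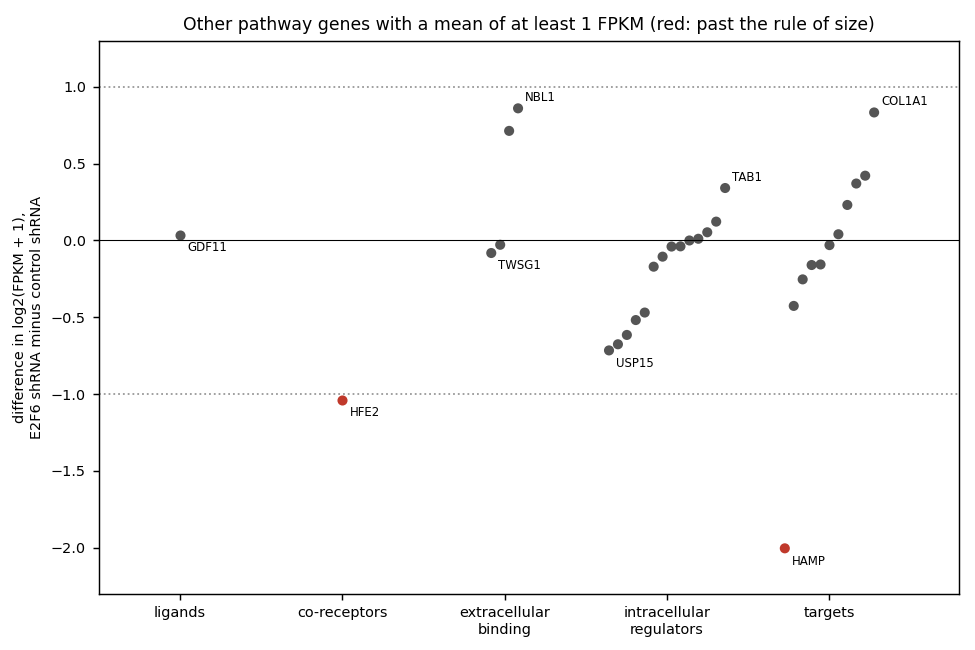
Difference in log2(FPKM + 1), E2F6 shRNA minus control shRNA, for the 31 other pathway genes that reached a mean of 1 FPKM, by role, with each role's highest and lowest gene and the called genes named. The dotted lines mark the rule of size, past which lie HFE2 and HAMP.

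Several of these genes are also active in fibroblasts and stellate cells. Of 10 markers of those cells 7 were analysed and 4 reached a mean of 1 FPKM, with a summed level of 61.1 FPKM in the E2F6 shRNA library and 40.7 FPKM in the control shRNA library. Of the 4 differences 2 were above 0, those of COL1A1, also counted above as a target, at 0.83 and COL1A2 at 0.40, and 2 were below 0, those of PDGFRA at -0.03 and LUM at -0.35. None passed the rule. With the GC trend removed 3 of the 4 were above 0, LUM then at 0.12, and PDGFRA was at -0.006. COL3A1, at a mean below 1 FPKM, was at 1.17 FPKM with the E2F6 shRNA and 0.393 FPKM with the control shRNA. Its ratio was 2.97 (1.58 to 6.01), from an estimated 36 fragments with the E2F6 shRNA and 14 with the control shRNA. PDGFRB, also below that mean, had an interval of 0.337 to 1.44. ACTA2, the smooth muscle actin of activated stellate cells, was at 0.0611 FPKM with the E2F6 shRNA and listed at 0 with the control shRNA. Of the 10 hepatocyte and hepatoma markers 3 had a difference above 0 and 7 below, with a median of -0.53, and 3 intervals lay above 1 and 7 below it. By the rule 2 were lower, ALB at -1.15 and AHSG at -1.43, and 1 was higher, HNF4A at 1.55, where 2.06% of all genes were lower and 1.17% higher. AHSG at -1.57 and HNF4A at 1.40 stayed past the rule with the GC trend removed. ALB, at -0.84, did not, and the median of the 10 was then -0.35. The part of these shifts in the members' values was not tested.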

How the data were processed

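Total RNA of Huh7 cells was sequenced as mRNA libraries, 1 with an E2F6 shRNA and 1 with a control shRNA. The authors deposited 1 gene table per library. The headers name only the library, so the unit was read from the values: in genes with 1 transcript, the deposited values times transcript length were whole multiples of 1 step (98.6% within 0.01 in each library, below 50 fragments), as in FPKM. Per the submitters' processing notes, the tools were HISAT2 2.0.4 and StringTie 1.3.0 and the build GRCh37. Roles of the tools, annotation and strand setting are not given in the sources used here. Of 21227 rows 2 were dropped in each table, the TGFB1 row without a value and a row of spilled text.

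Lengths, GC content and exon overlap came from GENCODE release 29 (GRCh38), so only chromosome names are given for genes. Fragments were estimated with the mean transcript length, which is approximate for the 72.1% of genes with more than 1 transcript, and ratios were given exact conditional binomial 95% intervals. PCR copies without molecular identifiers do not count independent molecules, so intervals and limits cover counting error only.

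The members and gene lists were chosen with earlier results of these data known. All members are named, and of the other pathway genes those past the rule of size and each role's extremes, except 1 listed gene that is not reported here and is left out of that list's counts. The promoters and the hepatocyte markers shown were chosen after their values were seen. Alternatives were a pseudocount of 0.1, no minimum or a minimum mean of 5 FPKM, centring, quantile normalization, a trimmed-mean (TMM) factor (30% and 5% trimmed), 1.5-fold, protein-coding genes alone and a lowess GC correction (span 0.3). The counting interval as a rule was added after the data were seen. Computation used scipy 1.17.1, numpy 2.4.6, statsmodels 0.14.6, matplotlib 3.10.9 and pandas 2.3.3 under Python 3.11.15, and the procedures were tested on simulated data.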

Additional observations from a re-analysis of the deposited data

How the results depend on the processing

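TGFBR3, TGIF2, INHBE and FST stayed lower by the rule of size under centring, quantile normalization, the TMM factor, the GC correction, a pseudocount of 0.1, no minimum and protein-coding genes alone. A minimum mean of 5 FPKM left 1 member lower, FST, because fewer genes were tested, and put the median of the members at 0.18 and that of all genes at 0.037, with 67 genes higher and 128 lower. With a pseudocount of 0.1, which shrinks low values less, 2 members were higher (BMP2 and FSTL3) and 6 lower, 1 other pathway gene was higher and 4 lower, and 269 of all genes were higher and 522 lower. Of the 2 lower other pathway genes, 1 was left under the minimum mean of 5 FPKM and 1 under quantile normalization. Quantile normalization put 1 member higher, FSTL3, and the median of all genes at 0.030. The TMM factor also put 1 member higher, BMP2, and that median at 0.0055. The 1.5-fold threshold, applied to FPKM + 1, gave 7 members higher and 8 lower, 3 and 5 other pathway genes, and 585 and 1080 of all genes. With the GC correction the median of the members was 0.017 and 142 protein-coding genes were lower. Counting intervals excluding 1 gave 11 members above and 11 below, 7 and 9 other pathway genes, and 2403 and 2710 of all genes. BMPR1A, BMPR2, SMAD4, SMURF2, ID1 and TGFBI, none of them called, changed sign under the GC correction or another scaling. No paired analysis was possible because there was 1 library in each group, and for the same reason no replicate could be left out. Depth limits INHBA, INHBB, TGFB3 and SMAD1, which rest on under 20 estimated fragments in each library.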
